A study of Mus musculus with 18 samples.

Results

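Transcripts of 36 genes of endoplasmic reticulum (ER) stress and protein folding were followed in 3 tissues of mice under chronic restraint stress. The genes were a list of named chaperones, stress sensors, ER-associated degradation factors and integrated stress response genes, chosen by name, with earlier results of these data known. All 36 were found by gene identifier among the 34932 genes of the count table. Chronic restraint stress is a mouse model in which animals are repeatedly held confined. The 18 RNA sequencing libraries came from stress liver, control liver, stress brain, control brain, stress testis and control testis, with 3 replicate libraries per group. The labels name no strain, age, duration of restraint, drug or engineered allele for either treatment. Brain is the name used by the sample labels, although the protocol for RNA extraction mentions hippocampus. Replicate 3 of stress brain has a control-like code in its description, but its title, treatment and column name all give stress, and it is treated as such.

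The ER folds secreted and membrane proteins. Hspa5, which encodes the Hsp70 chaperone BiP, holds unfolded chains with its J-protein partners, Hsp90b1 (GRP94) acts on a subset of them, protein disulfide isomerases form and rearrange disulfide bonds, and calnexin and calreticulin bind sugar-tagged proteins. When unfolded proteins build up, the sensors encoded by Ern1 (IRE1), Atf6 and Eif2ak3 (PERK) start the unfolded protein response. IRE1 splices the Xbp1 transcript, and the XBP1 and ATF6 proteins raise transcription of chaperone and degradation genes. PERK phosphorylates the translation factor eIF2, which slows protein synthesis but favours translation of ATF4, a transcription factor whose targets include Ddit3 (CHOP), Trib3, Chac1, Asns and Ppp1r15a. Other kinases converge on eIF2 too, and the shared outcome is called the integrated stress response. Liver is known for its heavy load of secreted plasma proteins, and the response is tied there to feeding and lipid metabolism.

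Libraries held between 27845840 and 36497096 counts. Marker genes matched the labelled tissues. Hepatocyte markers summed to at least 70255 CPM, counts scaled to library size, in every liver library and to at most 497 CPM elsewhere, neuron markers reached 9288 CPM or more in brain and no more than 70.2 CPM elsewhere, and those of male germ cells 11794 CPM or more in testis and no more than 5.99 CPM elsewhere. The 497 CPM were in stress brain replicate 2 and came mostly from Ttr, which hepatocytes share with the choroid plexus. Each library is a piece of tissue, so fewer cells of a type and less RNA per cell cannot be told apart. The design text calls the replicates biological, and the same animal codes recur in the 3 tissues.

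Some of the genes held short promoter motifs. The list was made of named genes of the same pathway as the motifs, so the shares below are not independent of that choice. RefSeq promoters on build GRCm38.p6, from 250 bases before to 50 bases after the annotated start, were at hand for 31 of the 36 genes and were searched on both strands for 4 motifs known from this pathway. The ER stress response element (ERSE), CCAAT and CCACG with 9 bases of any kind between them, is bound by NF-Y at its first letters and by ATF6 or XBP1 at its last. It was found in 9 of 31 promoters (29%), against 37 of 27025 genes in the whole promoter table (0.137%). The 9 genes were Calr, Canx, Creld2, Derl3, Dnajc3, Hsp90b1, Hspa5, Pdia6 and Syvn1, and Hsp90b1 held 2 matches. The related ERSE-II, ATTGG and CCACG with 1 base between them, which has the same end letters and the first part on the opposite strand, was found in 2 of 31, Herpud1 and Dnajb11, against 0.0444% of all genes. The core of the unfolded protein response element, TGACGTG, known as an XBP1 and ATF6 site, was found in Hspa5 alone (3.23% of 31, against 2.22% of all genes). The C/EBP-ATF response element, TGATGNAA, a site of ATF4 and CHOP dimers, was found in 4 of 31, Asns, Chac1, Herpud1 and Trib3 (12.9%, against 4.51% of all genes). The 4 patterns do not contain one another.

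The stretches below show the motifs in genes whose values are described in detail here, and none is from Atf4 or Ppp1r15a, the 2 genes that passed the test in liver, whose promoters held no match to the 4 motifs. They run 5′ to 3′ on the strand of the gene, with each motif match in capitals and the other bases in lower case, and all of them lie before the start site.
Hspa5: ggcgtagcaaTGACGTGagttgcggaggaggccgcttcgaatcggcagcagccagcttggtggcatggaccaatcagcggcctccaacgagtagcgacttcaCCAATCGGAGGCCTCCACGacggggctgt
Hsp90b1: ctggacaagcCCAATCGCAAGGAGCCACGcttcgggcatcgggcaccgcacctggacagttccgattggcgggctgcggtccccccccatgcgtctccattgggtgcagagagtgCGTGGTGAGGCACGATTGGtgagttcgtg
Creld2: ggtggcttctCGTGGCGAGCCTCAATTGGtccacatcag
Pdia6: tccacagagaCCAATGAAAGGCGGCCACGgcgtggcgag
Calr: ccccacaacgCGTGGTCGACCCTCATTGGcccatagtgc
Canx: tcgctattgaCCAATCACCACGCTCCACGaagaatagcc
Herpud1: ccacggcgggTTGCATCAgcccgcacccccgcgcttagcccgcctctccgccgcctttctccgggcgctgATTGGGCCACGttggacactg
Chac1: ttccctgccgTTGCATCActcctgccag
Asns: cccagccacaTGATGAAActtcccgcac

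The stretches lie at chr2:34771923-34772053 for Hspa5, chr10:86705523-86705666 for Hsp90b1, chr15:88819510-88819548 for Creld2, chr12:17266481-17266519 for Pdia6, chr8:84847065-84847103 for Calr, chr11:50325790-50325828 for Canx, chr8:94386307-94386397 for Herpud1, chr2:119351039-119351066 for Chac1 and chr6:7693215-7693242 for Asns, all on GRCm38.p6. The genes are on the minus strand for Hsp90b1, Calr, Canx and Asns and on the plus strand for the others. A match describes letters and is not evidence of binding.

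In stress liver the integrated stress response genes Atf4 and Ppp1r15a fell, while the chaperone and disulfide isomerase genes had mostly higher values that did not pass. Stress was compared with control in edgeR across all genes, with Benjamini-Hochberg adjustment and a threshold of 0.05 for the adjusted p. Of the 36 genes, 0 passed as higher and 2 as lower, where 0.982% of the 14253 genes tested were called higher and 0.645% lower. By an unadjusted p below 0.05 there were 10 higher and 4 lower, against 8.78% and 8.37% of all genes. The log2 fold change, stress minus control, was above 0 for 24 of 36, against 48.7% of all genes, and its median was 0.26, against -0.01 over all genes.

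Atf4 (ENSMUSG00000042406), the transcription factor of the integrated stress response, had 111, 190.4 and 116 CPM in the stress livers, against 299, 288 and 293 CPM in the control livers. All 3 stress values lay below all control values, and stress replicate 2 was the highest of its group. The log2 fold change was -1.08 ± 0.20 (SE, n = 3 per group; edgeR adjusted p = 0.041). Ppp1r15a (ENSMUSG00000040435), which encodes GADD34, the stress-induced subunit that brings phosphatase to eIF2, had 13.9, 24.0 and 13.6 CPM in stress livers, against 50.1, 42.6 and 48.9 CPM in control livers. The groups were again apart, with stress replicate 2 nearest to the controls. Its log2 fold change was -1.46 ± 0.22 (edgeR adjusted p = 0.0176). Ppp1r15b, the constitutive counterpart of GADD34, had a mean of 124 ± 14.1 CPM in stress livers and 132 ± 3.35 CPM in control livers (SD, n = 3 each).

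The call for Atf4 held in edgeR only when stress replicate 2 was the library left out (adjusted p = 0.00364), and its adjusted p was 0.12 without stress replicate 1, 0.176 without stress replicate 3, 0.0555 without control replicate 1, 0.104 without control replicate 2 and 0.0753 without control replicate 3. For Ppp1r15a the edgeR call was lost without stress replicate 1 (adjusted p = 0.0663) and without stress replicate 3 (adjusted p = 0.0872). Ppp1r15a overlaps Tulp2 on the other strand, and the strand setting of the counting is not given in the sources used here, so reads of the pair cannot be told apart. Tulp2 had at most 1.22 FPKM in any liver library, where Ppp1r15a had at least 4.74 FPKM.

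Among the ATF4 targets the genes split in direction. Trib3, which encodes a pseudokinase that binds ATF4 and Akt, had 4.10, 2.87 and 2.78 CPM in stress livers, against 8.18, 7.59 and 5.06 CPM in control livers. Chac1, which encodes an enzyme that degrades glutathione, had 0.769, 2.72 and 0.851 CPM in stress livers, against 3.32, 3.36 and 6.52 CPM in control livers. For both genes every stress library lay below every control library. The log2 fold changes were -1.09 ± 0.26 for Trib3 and -1.59 ± 0.50 for Chac1 and did not pass (edgeR adjusted p = 0.0672 and 0.144). Asns, which encodes asparagine synthetase and is a textbook ATF4 target, went the other way, with 21.3, 25.3 and 30.7 CPM in stress livers, against 13.25, 6.31 and 18.75 CPM in control livers. The groups were apart, with a log2 fold change of 1.01 ± 0.33 that did not pass (edgeR adjusted p = 0.154). Chac1 and Asns both held the C/EBP-ATF response element shown above. Sesn2, which encodes a stress-induced inhibitor of mTOR signalling, had 9.765 ± 2.36 CPM in stress livers and 7.74 ± 1.18 CPM in control livers (SD, n = 3 each), with overlapping groups.

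**Figure D1:**
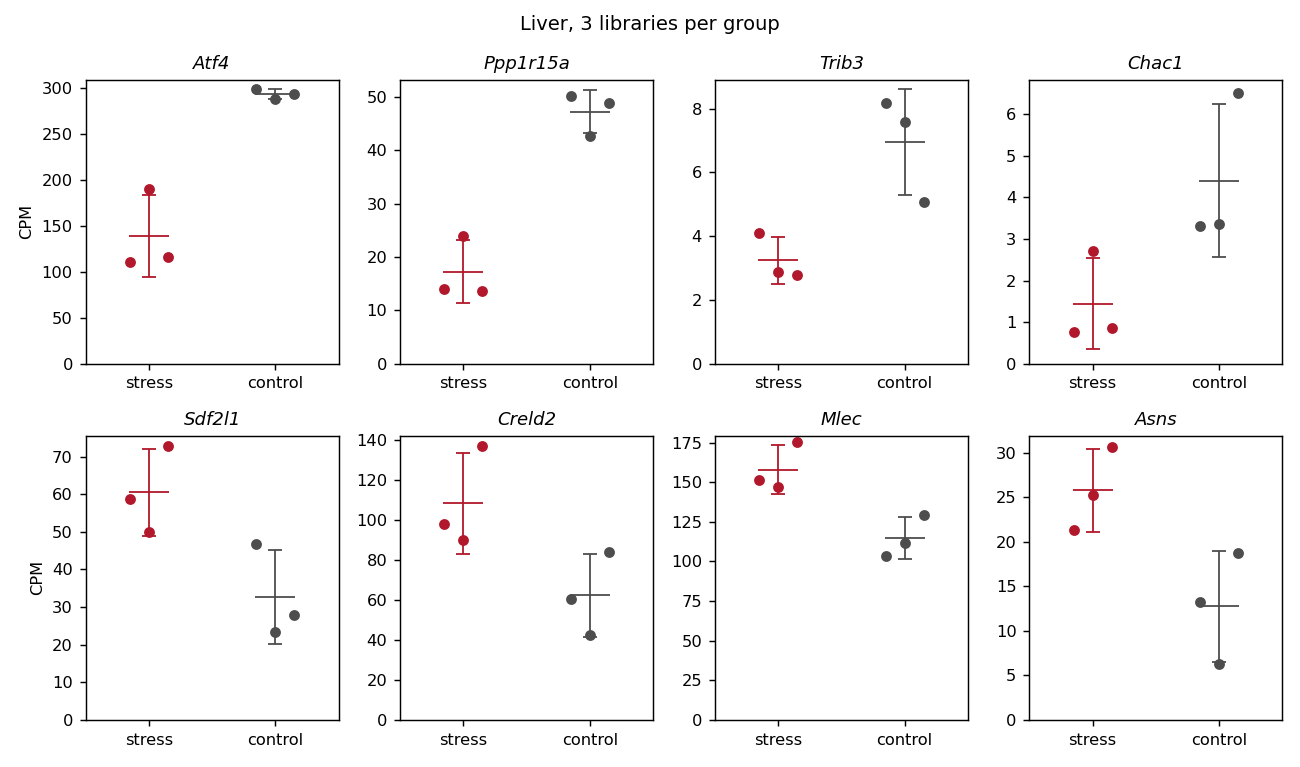
CPM of 8 genes in each liver library, stress left and control right, with 3 libraries per group; horizontal bars are means and whiskers SD. Atf4, Ppp1r15a, Trib3 and Chac1 lie lower in every stress library, and Sdf2l1, Creld2, Mlec and Asns lie higher in every stress library, than in any control library.

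The 7 chaperone genes of the Hsp70, Hsp90 and J-protein systems had log2 fold changes between -0.51 and 0.89 in liver, 6 of them above 0. Sdf2l1, a part of the BiP complex, had 58.6, 50.1 and 72.9 CPM in stress livers, against 46.8, 23.3 and 27.8 CPM in control livers. The groups did not overlap, although the lowest stress value and the highest control value were close. The log2 fold change was 0.89 ± 0.25 (edgeR adjusted p = 0.108). Hspa5 itself had 1079, 1320.0 and 1498 CPM in stress livers, against 939, 1007 and 1610.1 CPM in control livers, so that control replicate 3 held the highest value of all 6 libraries. The same library was the highest of its group for Hyou1 (319.7 CPM), Dnajb9 (140.4 CPM) and Hsp90b1 (580.2 CPM). Dnajb9, a J-protein that holds IRE1 in check, was the only gene of this group with a negative log2 fold change (-0.51 ± 0.32, groups overlapping).

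Of the other folding genes, Creld2, a secreted factor that the unfolded protein response induces, had 97.8, 89.9 and 137 CPM in stress livers, against 60.5, 42.4 and 83.9 CPM in control livers. The groups were apart, and the log2 fold change was 0.80 ± 0.25 (edgeR adjusted p = 0.14). Mlec, which encodes the glycan-binding protein malectin, had 151, 147 and 175.5 CPM in stress livers, against 103, 112 and 129 CPM in control livers. Its groups were also apart, and the difference in log2 was 0.46 ± 0.13 (edgeR adjusted p = 0.121). Of the 4 disulfide isomerases, Pdia3 and Pdia6 were higher in every stress library (log2 fold changes of 0.32 and 0.31), Pdia4 overlapped (0.39), and P4hb had 1294 ± 16.5 CPM in stress livers and 1308 ± 35.4 CPM in control livers. Calr, the calreticulin gene, was also higher in every stress library (0.30 ± 0.15), as was Dnajb11 (0.37 ± 0.15), and neither passed (edgeR adjusted p = 0.35 and 0.245).

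The sensors and the degradation genes were more mixed in liver. Ern1 had 83.1 ± 12.15 CPM in stress livers and 58.9 ± 17.2 CPM in control livers, with overlapping groups (log2 fold change 0.50 ± 0.21, edgeR adjusted p = 0.261), and Atf6 and Eif2ak3 had log2 fold changes of 0.06 and -0.14. Xbp1 had 223, 440.3 and 275.5 CPM in stress livers, against 330.5, 500.4 and 398 CPM in control livers, again overlapping (-0.39 ± 0.25). Splicing of Xbp1 was not measured by these gene counts. The 7 degradation genes ranged between a log2 fold change of -0.20 for Derl1 and a 2.82-fold higher fitted level for Derl3. Derl3, a secretory-cell form of the derlins that pass proteins out of the ER, had 15.1, 4.14 and 9.62 CPM in stress livers, against 6.405, 1.93 and 1.86 CPM in control livers, a wide and overlapping spread (edgeR adjusted p = 0.205). Ddit3, which encodes CHOP, had 12.3, 34.7 and 25.4 CPM in stress livers, against 14.3, 15.65 and 51.65 CPM in control livers, with the extreme values in different libraries of each group. It overlaps Mars on the other strand, at 19.5 to 22.4 FPKM in liver.

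By complete separation of the libraries, 8 genes were higher in every stress liver (12% of all genes) and 5 were lower (11.1% of all genes). The number higher at an unadjusted p under 0.05 was 4 without control replicate 2 and 5 without stress replicate 3, and lay between 4 and 13 over the 6 libraries left out in turn. The median log2 fold change was 0.13 without stress replicate 3, 0.17 without control replicate 2 and 0.33 without control replicate 3. DESeq2 called 4 higher (Asns, Creld2, Mlec and Sdf2l1) and 4 lower (Atf4, Chac1, Ppp1r15a and Trib3), where it called 3.27% of all genes higher and 2.66% lower. Macrophage markers moved with the groups as well, with a summed level of 161 to 193 CPM in stress livers and 77.5 to 89.9 CPM in control livers and 8 of 9 markers higher in stress, none of them at 0, and their part in the result was not tested. Hepatocyte markers summed to 70255 to 90443 CPM in stress livers and 79843.5 to 94065 CPM in control livers.

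Another 93 genes of the same pathways were counted beside the 36. In liver 90 were tested and 0 passed in edgeR, and their median log2 fold change was 0.03. By an unadjusted p below 0.05 in edgeR, 9 were higher and 5 lower, against 8.78% and 8.37% of all genes. DESeq2 called 2 of the 90 higher, Creb3l3 and Ero1lb, and 3 lower, Atf3, Fgf21 and Vldlr. It called 3.27% of all genes higher and 2.66% lower, so these counts lay near the shares over all genes. Limma-voom called Atf3. Atf3, a transcription factor induced by ATF4, had 2.05, 22.2 and 2.81 CPM in stress livers, against 62.7, 101 and 217.5 CPM in control livers. All stress values were lower, and stress replicate 2 was again nearest to the controls (log2 fold change -3.81 ± 0.85, edgeR adjusted p = 0.0583). Creb3l3, a liver transcription factor of the ER membrane that is cleaved like ATF6, had 328, 297 and 339 CPM in stress livers, against 232, 232 and 223 CPM in control livers (0.49 ± 0.12, edgeR adjusted p = 0.0774).

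**Figure D2:**
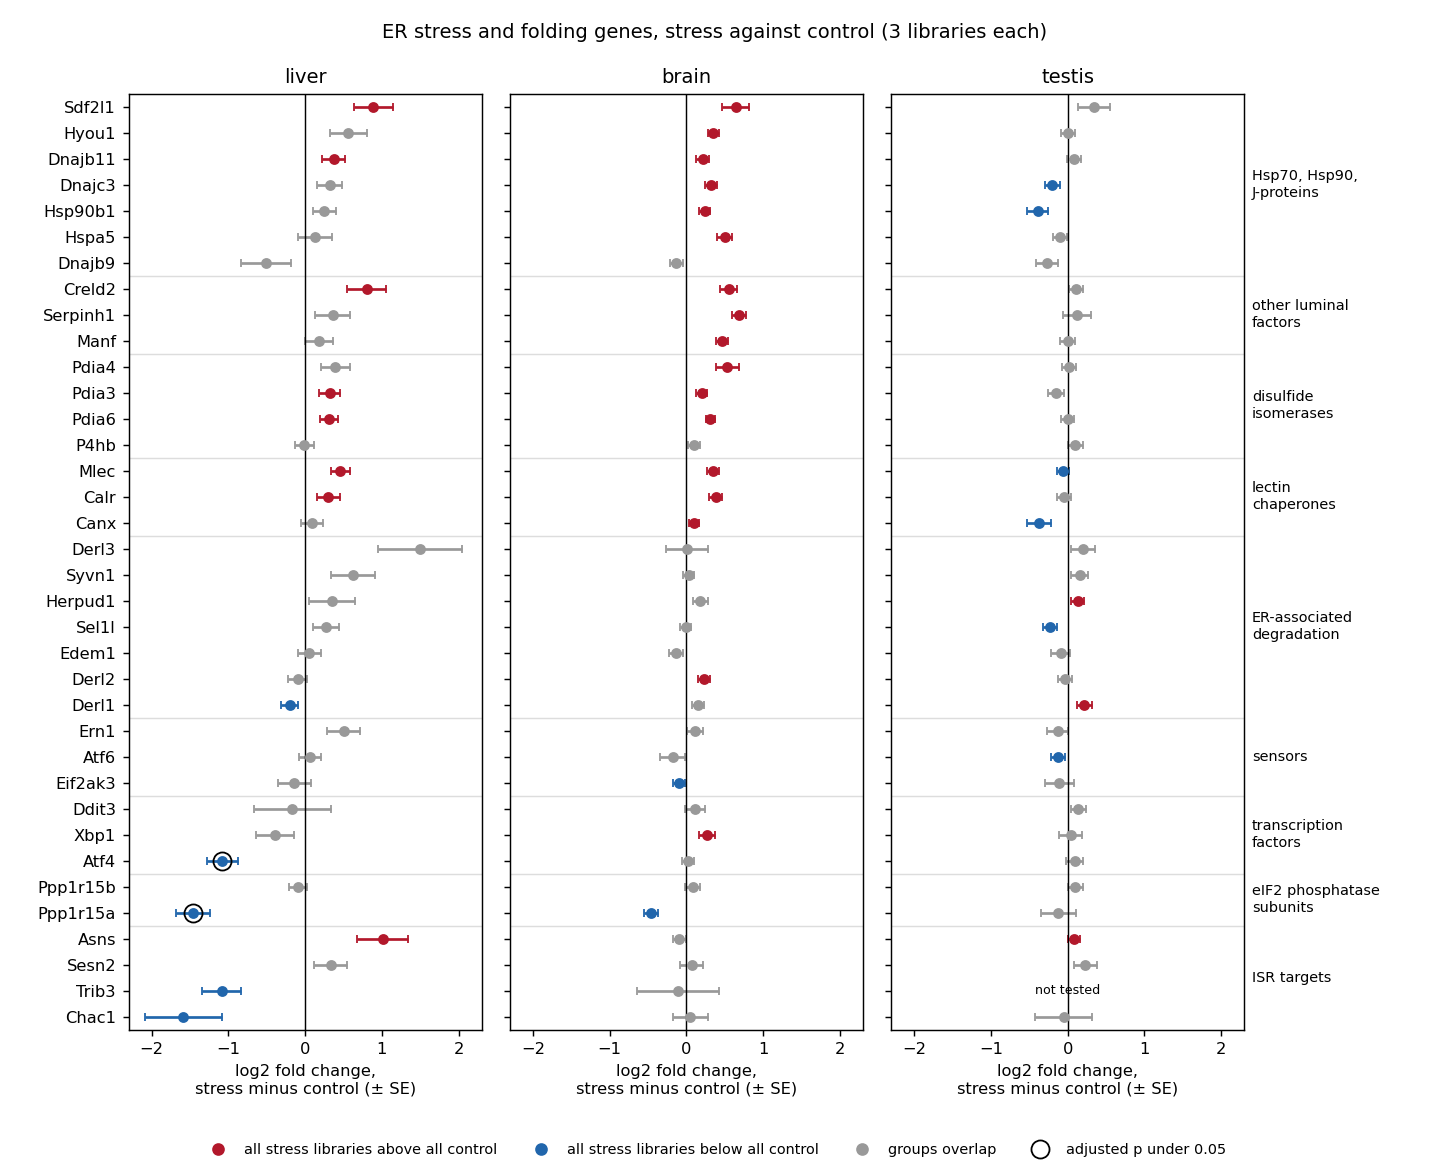
Log2 fold change, stress minus control, of all 36 genes in liver, brain and testis, with SE from edgeR (3 libraries per group). Genes are grouped by role, ISR standing for the integrated stress response; red and blue mark genes whose stress libraries all lie above or all below the control libraries, rings mark Atf4 and Ppp1r15a in liver, the 2 genes that passed, and Trib3 was not tested in testis.

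In stress brain the folding genes had mostly higher values than in control brain, by less than 1 on the log2 scale, and 0 of 36 passed in edgeR in either direction. Only 0.00566% of the 17668 genes tested in brain were called higher and 0% lower. By an unadjusted p below 0.05 there were 16 higher and 1 lower, against 4.16% and 3.38% of all genes. In 17 of 36 every stress library was above every control library, against 7.21% of all genes, and in 2 it was below, against 6.64%. The log2 fold change was above 0 for 28 of 36, against 49.1% of all genes, and its median was 0.13, against -0.00 over all genes.

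The higher values lay mostly in the folding groups. By separation of the libraries, 6 of 7 chaperones, 3 of 3 other luminal factors, 3 of 4 disulfide isomerases and 3 of 3 lectin chaperones were higher, against 1 of 7 degradation genes (Derl2), 1 of 3 transcription factors (Xbp1), 0 of 3 sensors and 0 of 4 integrated stress response targets. Serpinh1, which encodes the collagen chaperone HSP47, had the smallest p of the 36. It had 27.6, 25.4 and 25.4 CPM in stress brains, against 15.6, 15.9 and 17.2 CPM in control brains. The gap between the groups was wider than the spread within either, with a log2 fold change of 0.69 ± 0.09 (SE, n = 3 per group; edgeR adjusted p = 0.28).

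Manf, which encodes a BiP-binding protein that is secreted under ER stress and protects neurons, had 52.1, 48.4 and 50.4 CPM in stress brains, against 37.6, 33.6 and 38.5 CPM in control brains. Creld2 had 19.4, 19.4 and 22.2 CPM in stress brains, against 14.65, 12.4 and 14.5 CPM in control brains. For both genes the groups were apart, with log2 fold changes of 0.46 ± 0.08 and 0.55 ± 0.11 (edgeR adjusted p = 0.387 for each). Hyou1, which encodes GRP170, the nucleotide exchange factor of BiP, had 132, 139.9 and 145 CPM in stress brains, against 110.8, 102 and 113 CPM in control brains (0.35 ± 0.07, edgeR adjusted p = 0.387). Hspa5 had 327, 347 and 382 CPM in stress brains, against 268, 216 and 262.5 CPM in control brains (0.50 ± 0.10, edgeR adjusted p = 0.387). Groups were apart for both genes, and control replicate 2 was the lowest library for each.

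Most of the other folding genes had higher values as well. Pdia4, Pdia6 and Pdia3 had log2 fold changes of 0.53, 0.31 and 0.20, Calr, Mlec and Canx of 0.38, 0.35 and 0.10, and Sdf2l1, Dnajc3, Hsp90b1 and Dnajb11 of 0.64, 0.32, 0.24 and 0.21. All of these were higher in every stress brain, and none passed (edgeR adjusted p between 0.387 and 0.764). Dnajb9 was the chaperone outside this pattern, with 39.9 ± 1.55 CPM in stress brains and 43.75 ± 3.17 CPM in control brains (SD, n = 3 each). Manf overlaps Rbm15b and Dcaf1 in the annotation, at 9.15 to 10.3 and 3.94 to 4.96 FPKM in brain.

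The gene with the smallest p among those lower in stress brain was Ppp1r15a. It had 16.3, 16.1 and 14.8 CPM in stress brains, against 22.5, 21.8 and 20.4 CPM in control brains. The groups were apart (log2 fold change -0.46 ± 0.09, edgeR adjusted p = 0.387), and the overlapping Tulp2 had at most 0.21 FPKM in brain. Eif2ak3 was also lower in every stress brain (-0.10 ± 0.08). Atf4 had 149.5 ± 12.2 CPM in stress brains and 147 ± 5.76 CPM in control brains (SD, n = 3 each), a log2 fold change of 0.02 ± 0.08.

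**Figure D3:**
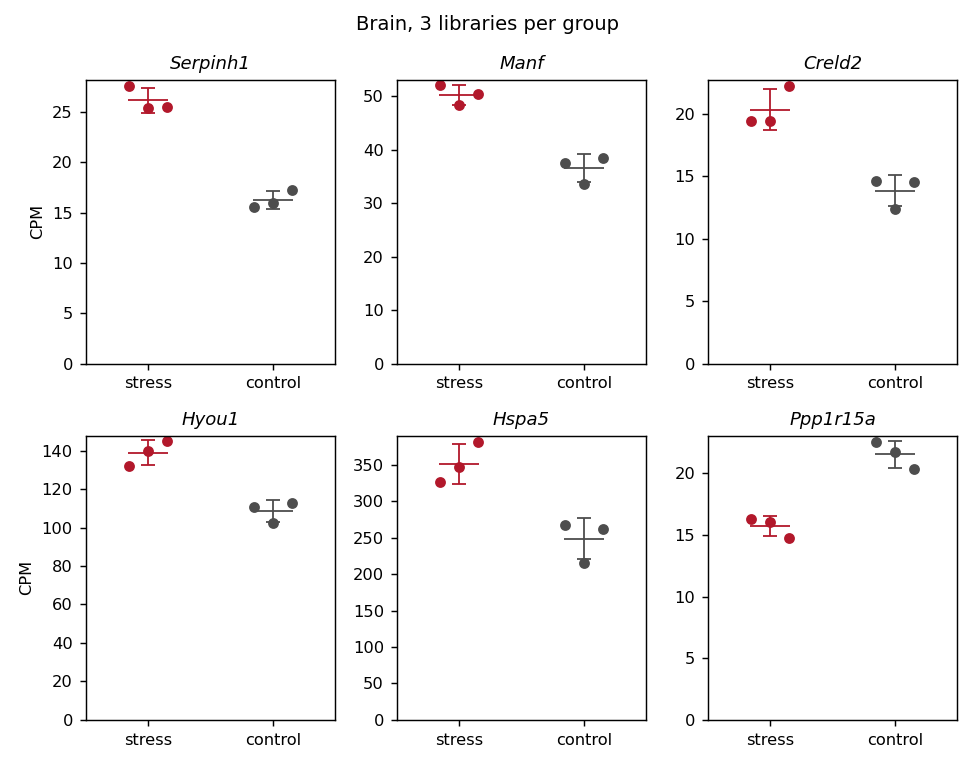
CPM of 6 genes in each brain library, stress left and control right, with 3 libraries per group; horizontal bars are means and whiskers SD. Serpinh1, Manf, Creld2, Hyou1 and Hspa5 are higher, and Ppp1r15a is lower, in every stress library than in any control library.

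DESeq2 called 6 genes higher in brain (Creld2, Hspa5, Hyou1, Manf, Pdia6 and Serpinh1) and Ppp1r15a lower, where it called 0.526% of all genes higher and 0.249% lower, while limma-voom and limma on TPM called 0 in either direction. Markers of other cells differed between the brain libraries. Choroid plexus markers summed to 16.3, 538 and 355 CPM in stress brains, against 8.26, 14.5 and 15.5 CPM in control brains, with all 10 markers higher in stress by their mean and none at 0 in all libraries. Fibroblast and meninges markers, mostly Ptgds, summed to 1545, 1235 and 756.5 CPM in stress brains, against 1052, 998 and 596 CPM in control brains, with 8 of 8 higher. Red cell markers summed to 74.8, 62.0 and 111 CPM in stress brains, against 154.5, 101 and 259.9 CPM in control brains. Leaving out stress replicates 2 and 3, the libraries high in Ttr (a choice made after seeing the data), leaves 1 stress library, so only effect sizes are given. In that fit Serpinh1 had a log2 fold change of 0.76, and the median over the 36 genes was 0.17, against -0.01 over all genes. Without control replicate 3 the median over the 36 genes was 0.20. A fit with 1 stress library cannot show the part of the choroid plexus, and that of the meningeal and blood cells was not tested either. Of the other 93 pathway genes 91 were tested in brain and 0 passed in edgeR or DESeq2, with a median log2 fold change of 0.03. By an unadjusted p below 0.05 in edgeR, 4 were higher and 2 lower, against 4.16% and 3.38% of all genes.

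In testis the genes were close to control, and 0 of the 35 tested passed in edgeR, limma-voom or DESeq2. Of 19915 genes 0.00502% were called higher and 0.0151% lower. Trib3 was under the filter on low counts and was left out of the test. By an unadjusted p below 0.05 there were 0 higher and 3 lower, against 6.43% and 5.3% of all genes. In 3 genes every stress library was higher (Asns, Derl1 and Herpud1) and in 6 every one was lower (Atf6, Canx, Dnajc3, Hsp90b1, Mlec and Sel1l), against 10.3% and 10.7% of all genes. The median log2 fold change was 0.00, against 0.01 over all genes, and 18 of 35 were above 0, against 52.1% of all genes.

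The 3 with the smallest p were all lower in stress. Hsp90b1, which encodes GRP94, had 364, 285 and 408 CPM in stress testes, against 516.5, 445 and 428 CPM in control testes. Canx, the calnexin gene, had 202, 128 and 203 CPM in stress testes, against 238, 231.5 and 219.7 CPM in control testes. Stress replicate 2 was the lowest library for both genes. Sel1l, the adaptor of the degradation ligase Syvn1, had 51.1, 50.9 and 57.75 CPM in stress testes, against 60.45, 66.1 and 60.55 CPM in control testes. Groups were apart for all 3 genes. The log2 fold changes were -0.39 ± 0.14 for Hsp90b1, -0.37 ± 0.16 for Canx and -0.23 ± 0.09 for Sel1l (SE, n = 3 per group; edgeR adjusted p = 0.422 for each).

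Male germ cell markers summed to 13773, 15328 and 13381 CPM in stress testes, against 12326, 11794 and 12061 CPM in control testes, with no overlap and 5 of 8 markers higher in stress by their mean. Prm1, Prm2 and Tnp2, genes of late spermatids, were higher in every stress library, and Ddx4, a gene of earlier germ cells, was lower in every one. The other markers of the list, Tnp1, Odf1, Acrv1 and Sycp3, overlapped between the groups. The part of germ cells in the values of Hsp90b1, Canx and Sel1l was not tested. Stress testis replicate 2 also stood apart in markers of other cells. Macrophage markers summed to 35.3, 75.9 and 32.9 CPM in stress testes and to 28.9 to 33.15 CPM in control testes. Sertoli cell markers summed to 928, 1607.5 and 960.2 CPM in stress and 932.5 to 1016 CPM in control. Most of that sum was Clu, at 1469.7 CPM in stress testis replicate 2, which is not particular to these cells and had 1667.1 CPM in stress liver replicate 1. Every marker on the Sertoli list was highest in stress testis replicate 2 among the testis libraries. Leydig cell markers summed to 312, 502 and 336 CPM in stress and 360.7 to 375 CPM in control, but did not move together. In stress replicate 2 Insl3 had 289 CPM, against 61.45 to 77.2 CPM in control testes. Cyp17a1 had 64.65 CPM there, against 115.5 to 128 CPM in control testes, and Star 43.7 CPM, against 57.9 to 106 CPM. Without that library the log2 fold change was -0.27 for Hsp90b1, -0.19 for Canx and -0.20 for Sel1l, the median over the genes tested was -0.06, and 0 passed in edgeR. Of the other 93 pathway genes 92 were tested in testis, and 0 passed in edgeR or DESeq2. By an unadjusted p below 0.05 in edgeR, 10 were higher and 1 lower, against 6.43% and 5.3% of all genes. Pdia3 overlaps Catsper2, a sperm ion channel gene at 71.2 to 76.7 FPKM in testis, and Ppp1r15a overlaps Tulp2 at 297 to 358 FPKM there, so their testis values are uncertain.

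Whether the effect of stress differed between tissues was tested with an interaction term in fits of 12 libraries, and 0 of 36 passed in edgeR for any pair. Both tissues of a pair hold the same animal codes, and these fits did not block for them. The share of all genes called was 0.1% higher and 0.0949% lower for liver minus brain, 0.0748% and 0.0795% for liver minus testis, and 0% in both directions for testis minus brain. Atf4 came nearest, with a difference in log2 fold change of -1.09 ± 0.24 between liver and brain and -1.22 ± 0.26 between liver and testis (edgeR adjusted p = 0.097 and 0.0725). Ppp1r15a had -1.0 ± 0.26 between liver and brain and -1.38 ± 0.34 between liver and testis (edgeR adjusted p = 0.136 and 0.111). Without stress liver replicate 2 both genes passed in both pairs, and DESeq2 called both genes lower in both pairs with all libraries, where it called 1.64% of all genes lower for liver minus brain and 1.58% for liver minus testis.

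For Asns the effect was 1.11 ± 0.39 larger in liver than in brain, and for Mlec 0.48 ± 0.16 larger in liver than in testis, in log2 units (edgeR adjusted p = 0.28 and 0.205). Between testis and brain, 13 genes had a lower effect in testis at an unadjusted p under 0.05 and 0 a higher one, against 4.05% and 5.38% of all genes. The smallest p were for Hspa5, with a difference of -0.59 ± 0.15, Dnajc3 with -0.52 ± 0.14 and Hsp90b1 with -0.62 ± 0.18 (edgeR adjusted p = 0.365, 0.399 and 0.405). At the same unadjusted p, 1 gene had a higher and 5 a lower effect in liver than in brain (5.89% and 5.72% of all genes), and 6 had a higher and 4 a lower effect in liver than in testis (5.05% and 8.84%). Stress and control libraries of each tissue serve in 2 of these tests, so the 3 are not independent.

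The 9 genes with an ERSE match had log2 fold changes above 0 in 9 of 9 in liver and 9 of 9 in brain, and in 3 of 9 in testis. Their median was 0.31 in liver, also 0.31 in brain, and -0.05 in testis, whereas that of the genes with no match or no promoter at hand was 0.06, 0.11 and 0.01. In liver 3 of the 9 were higher in every stress library, against 5 of the other 27, and in brain 7 of the 9, against 10 of the other 27, where 12% and 7.21% of all genes were. In testis 3 of the 9 were lower in every stress library, against 3 of the other 26, where 10.7% of all genes were. The 4 genes with a C/EBP-ATF response element ranged between -1.59 for Chac1 and 1.01 for Asns in liver and between -0.11 and 0.18 in brain. These medians describe the genes and were not tested.

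**Figure D4:**
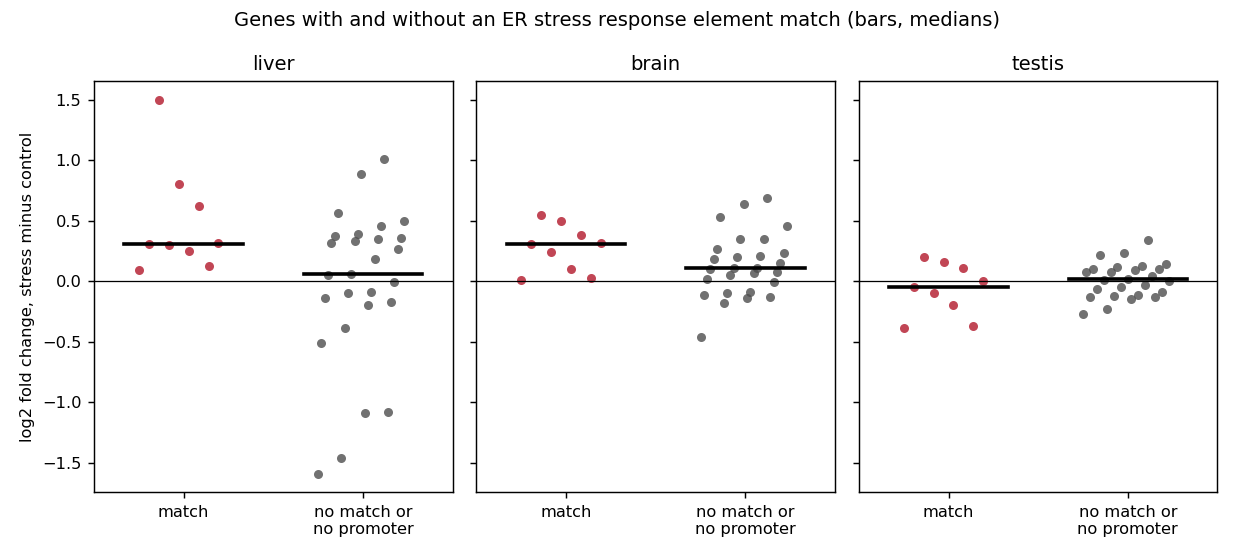
Log2 fold change, stress minus control, of genes with an ERSE match in the RefSeq promoter (left in each panel, 9 genes) and of the other genes (right), by tissue; each point is a gene and bars are medians. In liver and brain the genes with a match all lie above 0, with a median of 0.31, and in testis they lie on both sides of 0.

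Levels between genes are given as FPKM, which divides counts by gene length and library size. By mean FPKM in control libraries 23 genes were highest in liver, 7 in testis and 6 in brain. All 6 libraries of the highest tissue were above all 6 of the next in 14, 5 and 2 of them, in the same order. By TPM the numbers were 17, 13 and 6, and the highest tissue was the same for 30 of 36. Calr, Dnajb11, Hsp90b1, Sdf2l1, Pdia3 and Hyou1 were highest in liver by FPKM and in testis by TPM. FPKM do not sum to the same total in each tissue. The total was 503820 to 531727 in liver, 292850 to 301783 in brain and 388720 to 482396 in testis. FPKM ratios between tissues thus depend on this scale, and those of liver over brain are raised by it relative to TPM. Relative to the TMM scaling that edgeR used, they are lowered, as the values of Eif2ak3 below show. The 36 genes together held 0.829 to 1.01% of the counts in stress livers and 0.7345 to 0.9445% in control livers. They held 0.3298 to 0.3497% in stress brains and 0.279 to 0.303% in control brains, with no overlap. In testis they held 0.428 to 0.4496% in stress and 0.4453 to 0.449% in control, with overlap.

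Highest in control liver were P4hb, which encodes the main disulfide isomerase, at 453 ± 11.8 FPKM (SD, n = 3), Hspa5 at 279 ± 92.1 FPKM and Calr at 266 ± 40.6 FPKM. Hspa5 and Calr overlapped in range, and P4hb lay above both. In control brain the order was Calr at 97.6 ± 6.72 FPKM, Atf4 at 85.2 ± 3.25 FPKM and Canx at 61.9 ± 1.71 FPKM, which did not overlap. In control testis it was Calr at 222 ± 11.2 FPKM, Pdia3 at 138 ± 7.11 FPKM and Creld2 at 133 ± 9.499 FPKM, and the last 2 overlapped. At the low end were Chac1, Derl3 and Sesn2 in control liver (2.68, 2.51 and 2.21 FPKM), Ern1, Derl3 and Trib3 in control brain (1.90, 1.08 and 0.305 FPKM), and Chac1, Eif2ak3 and Trib3 in control testis (0.922, 0.69 and 0.115 FPKM).

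By FPKM in control libraries, several genes were marked by 1 tissue. P4hb had 25.01 ± 1.51 FPKM in control testis, 453 ± 11.8 FPKM in control liver and 30.2 ± 2.41 FPKM in control brain. Xbp1, needed for secretory cells, had 3.87 ± 0.267 FPKM in control testis, 125 ± 26.1 FPKM in control liver and 26.7 ± 2.82 FPKM in control brain. Both were highest in liver with no overlap, and Xbp1 was 32.3 times as high there as in testis. Derl3 had 17.9 ± 1.23 FPKM in control testis, 2.51 ± 1.89 FPKM in control liver and 1.08 ± 0.233 FPKM in control brain. Creld2 had 133 ± 9.499 FPKM in control testis, 45.4 ± 15.9 FPKM in control liver and 10.1 ± 0.88 FPKM in control brain. These 2 genes were thus highest in testis, where Derl3 was 16.6 times and Creld2 13.2 times as high as in brain. Asns was highest in testis too, at 56.1 ± 1.69 FPKM, with 4.65 ± 2.33 FPKM in control liver and 37.2 ± 4.70 FPKM in control brain. Sel1l was highest in brain by FPKM, with 7.16 ± 0.476 FPKM in control testis, 13.9 ± 1.76 FPKM in control liver and 24.4 ± 1.84 FPKM in control brain. With the TMM scaling of edgeR, Sel1l was not called lower in liver than in brain.

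**Figure D5:**
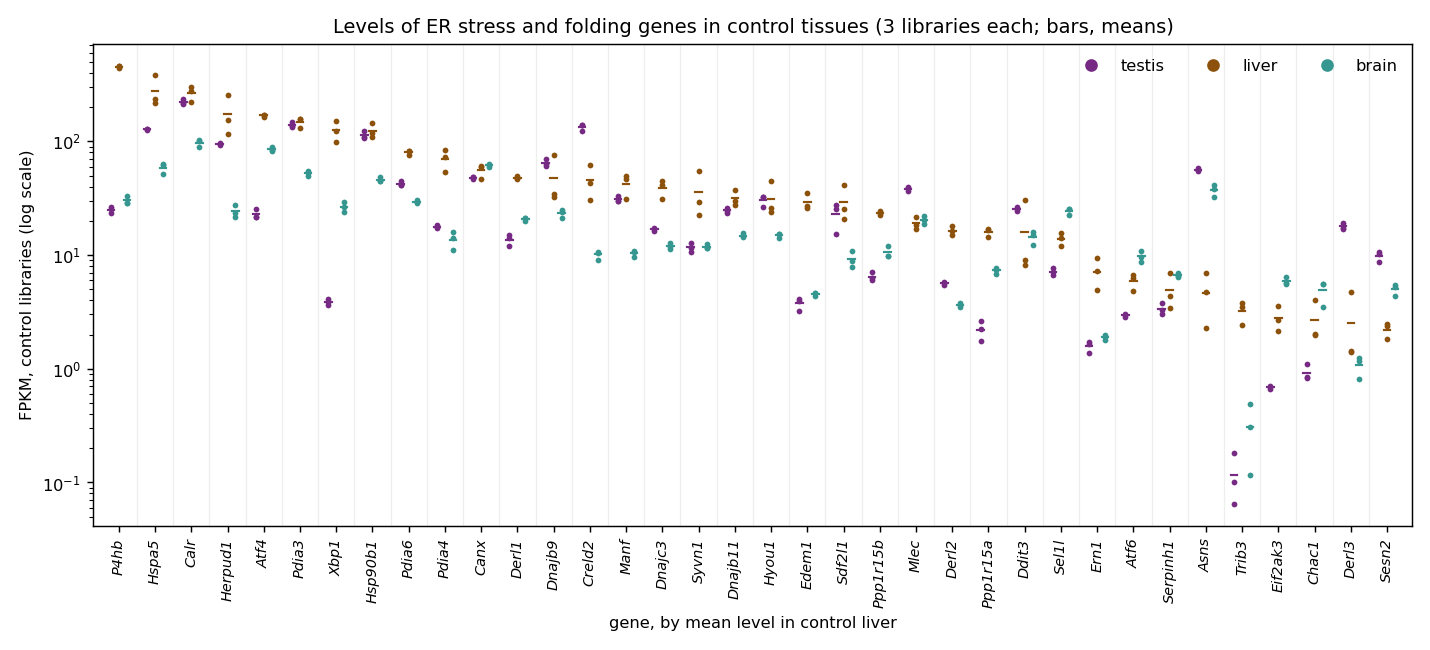
FPKM (log scale) of the 36 genes in control testis, liver and brain, ordered by mean level in control liver; points are the 3 libraries per tissue and bars are means. P4hb, Xbp1 and Trib3 stand out in liver, and Derl3 and Creld2 in testis.

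In edgeR over the 9 control libraries, with TMM scaling, 31 genes were higher and 1, Asns, was lower in liver than in brain, where 30% and 40.3% of all genes were called. In testis against liver 5 were higher (Asns, Creld2, Derl3, Mlec and Sesn2) and 29 lower, where 52% and 32.9% of all genes were called, and in testis against brain 20 were higher and 10 lower, where 45% and 38.7% were called. These counts depend on the scaling. With limma on TPM, 20 were higher and 9 lower in liver than in brain (11.7% and 64.9% of all genes). In testis, 8 were higher and 19 lower than in liver (62.1% and 21.2% of all genes), and 15 were higher and 15 lower than in brain (37.6% and 49.5% of all genes). The median log2 difference of all genes was -1.06 on the TPM scale and -0.21 in edgeR for liver minus brain, and -0.34 and 0.20 for testis minus brain. Eif2ak3 shows the difference, with 2.80 ± 0.716 FPKM in control liver and 5.88 ± 0.427 FPKM in control brain, while its TMM-scaled log2 difference, liver minus brain, was -0.03 ± 0.16 (edgeR adjusted p = 0.944).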

How the data were processed

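RNA was sequenced from stress and control mouse liver, brain and testis, 3 libraries per group, with libraries made by a stranded total RNA kit per the labels' protocols and reads placed on mm39 per the submitters' processing notes. How reads were aligned and counted, on which strand and with which annotation, is not given in the sources used here. A single table holds the authors' deposited counts per gene, whole numbers with no normalization. The authors' FPKM and TPM values were recomputed from the counts and a single length for each gene, and TPM sum to the same total per library. In testis a short RNA gene, Gm23935, took 2.73 to 16.7% of the TPM, so levels are given as FPKM and tests used the counts. FPKM has a limit too, since its total per library differs between tissues. Symbols came from GENCODE mouse release M21 (GRCm38) by gene identifier and named 34362 genes. The files' build is another, so no gene positions are given, and promoter positions are those of the RefSeq table.

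Within each tissue, edgeR 4.0.16 in R 4.3.3 was fitted to the 6 libraries (TMM factors, filterByExpr, quasi-likelihood test, 2-sided), with Benjamini-Hochberg adjustment over all genes tested. SE is the log2 fold change divided by the root of the F value, and CPM are TMM-scaled. Interactions used the 12 libraries of a pair of tissues, and levels the 9 control libraries. The fits were tested on simulated data with 200 changed genes. The members and lists were chosen with earlier results of these data known. Named were the genes that passed, up to 4 per direction and tissue with the smallest unadjusted p under 0.05, up to 3 per interaction, and the 3 highest and 3 lowest levels per tissue, ranked here by FPKM in place of the TPM first planned. Any other gene was named after its values were seen. The alternatives tried were no filter, DESeq2 1.42.0, edgeR with size factors of DESeq2, limma 3.58.1 on log2(TPM + 1), limma-voom, a replicate block, all 18 libraries in 1 fit, leaving out each library, and stress libraries for the levels.

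The main fits did not pair libraries. A block for the replicate number within a tissue, and for the animal in the interactions, was run only as an alternative. In brain, deviations from the group mean correlated over genes at 0.348, 0.248 and 0.54 between stress and control libraries of the same number. The labels state no pairing of stress and control libraries, so whether these belong together is not known.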

Additional observations from a re-analysis of the deposited data

Results flagged for a closer look

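Some genes had all stress libraries above control in 1 tissue and all below control in another. They were picked for this pattern, so the tests of the difference are not independent of the choice. The share of all genes with such a pattern is not given here. Values are log2 fold changes, stress minus control, and the difference was tested as an interaction in edgeR over 12 libraries, with 3 libraries per group. Hsp90b1 had -0.39 in testis and 0.24 in brain (edgeR adjusted p of the difference = 0.405). Canx had -0.37 in testis and 0.10 in brain (edgeR adjusted p = 0.516). Dnajc3 had -0.20 in testis and 0.32 in brain (edgeR adjusted p = 0.399). Derl1 had -0.20 in liver and 0.22 in testis (edgeR adjusted p = 0.212). Mlec had 0.46 in liver, -0.06 in testis and 0.35 in brain (edgeR adjusted p = 0.205 for liver minus testis and 0.405 for testis minus brain). None of the differences passed. Without stress testis replicate 2, which stood apart in macrophage and Sertoli cell markers and in Insl3, Hsp90b1 had -0.27 and Canx -0.19 in testis.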

How the results depend on the processing

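Counts are of genes that passed at an adjusted p under 0.05, higher and lower, with edgeR on TMM-scaled counts as the main test. In liver (0 higher, 2 lower) DESeq2 gave 4 and 4, no filter on low counts 4 and 4, the replicate block 3 and 3, and the fit on all 18 libraries 3 and 3. Limma on TPM gave 1 lower, with Atf4 at an adjusted p of 0.0545. Deviations of same-numbered libraries correlated at 0.237, 0.054 and 0.022 in liver and at 0.108, 0.101 and -0.127 in testis. Such correlations cannot show whether the libraries belong together. In brain (0 and 0) DESeq2 gave 6 and 1, and the replicate block 0 and 0, as with the other tools named. The replicate block changed no other call in brain or testis, and the animal block changed none of the 15 interaction results compared. The median in testis was 0.00, and -0.08 with limma on TPM, which also moved the median of all genes to -0.06. For liver minus brain, DESeq2 called 2 lower and no filter 1 lower. For liver minus testis, DESeq2 called 1 higher and 3 lower and no filter 2 lower. For testis minus brain, DESeq2 called 2 lower. Among control tissues, limma on TPM gave 8 higher and 19 lower for testis over liver and 20 higher and 9 lower for liver over brain and 15 and 15 for testis over brain, while the stress libraries gave 2 higher for testis over liver and 2 lower for liver over brain. DESeq2 size factors in edgeR and limma-voom moved none of the 46 results compared. The causes were not tested.

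Leaving out 1 library at a time gave 0 to 1 higher and 0 to 3 lower in liver with a median of 0.13 to 0.33, 0 and 0 in brain with a median of 0.14 to 0.20, and 0 and 0 in testis with a median of -0.06 to 0.02. The interactions had 0 higher, and 0 to 3 lower for liver minus brain, 0 to 2 for liver minus testis and 0 for testis minus brain. The levels gave 4 to 6 higher and 29 lower for testis over liver, 19 to 21 and 9 to 10 for testis over brain, and 28 to 31 and 1 for liver over brain. None of the genes named by the rule changed direction under the alternatives run, and the others were not followed one by one. The number above 0 in liver was 21 to 26 of 36 over the libraries left out. With 3 libraries per group small differences cannot be called.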
